A study of Mus musculus with 2 samples.

Results

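A rule named 173 of 4536 cells of a mouse bone marrow endothelial library arterial-type endothelial cells (3.81%, exact 95% interval 3.28% to 4.41%). Both libraries of the study together held 8786 cells. The name stands for the rule, and the deepest of the 173 cells, described below, did not look endothelial. All 173 were chosen by their own RNA counts. A cell had to hold at least 1000 UMIs (unique molecular identifiers, each 1 counted RNA molecule), at least 1 UMI summed over the endothelial genes Cdh5 and Cldn5, and at least 10 UMIs summed over the 5 genes Ly6a, Ly6c1, Cd34, Sema3g and Gja4, more than its UMIs of Stab2, Dnase1l3 and Ackr1. The comparison class, called the sinusoidal reference, was the 3201 other cells of the same library with at least 1000 UMIs and at least 5 UMIs of Stab2, Dnase1l3 and Ackr1. A further 426 cells of that depth fell in neither class.

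Both libraries came from C57Bl/6JCrl mice of genotype LepR-Cre;LSL-tdTomato, aged 3 to 4 months, with 1 library for each labelled population. In these mice Cre driven by the leptin receptor gene switches on the red protein tdTomato in stromal cells and their descendants. The EC library was labelled as marrow endothelium and the LepR_tdT library as LepR-Cre;tdTomato+ marrow cells. The labels name stains for VE-cadherin, CD45, Ter119 and LepR without stating the gate, and mention tamoxifen for sample numbers that overlap, so which of these applied to the EC library is uncertain. The number of mice per library is not given in the sources used here. With no replicate library, all intervals cover counting error only and no p-value was computed.

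Marrow is fed by small arteries and arterioles that run into capillaries and then into wide, leaky sinusoids, through which blood cells enter the circulation. Arterial endothelium is shaped by blood flow, VEGF, Notch signalling and SOXF transcription factors, and is wrapped in elastic fibres and a continuous basement membrane. Sinusoidal endothelium takes up waste from the blood through scavenger receptors such as Stab2 and binds leukocytes through VCAM-1 and selectins. Arteriolar endothelium in marrow is also known as a source of CXCL12, the chemokine that holds haematopoietic stem cells in the marrow, and of stem cell factor, encoded by Kitl.

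The promoters of 3 genes that the account turns on are shown so that the letters upstream of an arterial gap junction gene, the niche chemokine and the most skewed matrix gene can be seen. Each is the 250 bases before the RefSeq gene start (build GRCm38.p6), written 5′ to 3′ on the gene's strand. Gja4 lies on the minus strand at chr4:127314040-127314289, Cxcl12 on the plus strand at chr6:117168285-117168534 and Fbln2 on the plus strand at chr6:91212514-91212763. Capitals mark matches on either strand to GTGGGAA (the core bound by RBPJ, the Notch transcription factor), ACAAT (a core of SOX factors) or CACCC (a core of the flow-responsive KLF factors).
Gja4: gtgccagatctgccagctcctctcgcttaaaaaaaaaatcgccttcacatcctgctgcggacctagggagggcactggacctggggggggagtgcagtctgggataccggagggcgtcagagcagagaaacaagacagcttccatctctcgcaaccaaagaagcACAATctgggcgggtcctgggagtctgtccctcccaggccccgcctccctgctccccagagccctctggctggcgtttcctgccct
Cxcl12: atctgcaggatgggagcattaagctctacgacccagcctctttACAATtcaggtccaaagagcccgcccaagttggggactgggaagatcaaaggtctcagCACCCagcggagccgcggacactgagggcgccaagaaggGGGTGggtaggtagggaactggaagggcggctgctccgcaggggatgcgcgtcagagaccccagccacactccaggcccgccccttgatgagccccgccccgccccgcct
Fbln2: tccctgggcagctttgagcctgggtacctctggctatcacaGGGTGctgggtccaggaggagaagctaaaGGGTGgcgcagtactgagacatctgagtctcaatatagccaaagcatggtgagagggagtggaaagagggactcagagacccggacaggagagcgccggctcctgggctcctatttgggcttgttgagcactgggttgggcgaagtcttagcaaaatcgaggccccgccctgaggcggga
Among the 20 genes made of the 15 highest outside the rule and the 5 arterial rule genes, 12 had a RefSeq promoter in the table used. ACAAT stood in 4 of these 12 (33.3%), against 30.9% of all 27025 genes with a promoter. CACCC stood in 7 of 12 (58.3%), against 54.5% of all genes, and GTGGGAA in 1 of 12 (8.33%), against 6.18%. The shares were thus close to those of all promoters, and a match describes letters only.

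The 5 genes that chose the cells did so very unequally, and their values are given as a description. Of 4416 UMIs of these genes in the 173 cells, Ly6c1 supplied 2008 (45.5%) and Ly6a 1765 (40.0%). Both encode small lipid-anchored surface proteins, and Ly6a is the Sca-1 antigen. Cd34, a sialomucin of progenitors and endothelium, supplied 328 UMIs (7.43%). Gja4, which encodes the arterial gap junction protein connexin 37, supplied 219 (4.96%), and Sema3g, an arterial semaphorin, 96 (2.17%). In the arterial-type cells Ly6c1 ran from 0 to 57 UMIs per cell with a median of 9, and Ly6a from 0 to 58 with a median of 7. In reference cells Ly6c1 ran from 0 to 13 with a median of 0 and Ly6a from 0 to 13 with a median of 1, so the classes overlapped in each single gene. Reads of Ly6c1 and its neighbour Ly6c2 may be hard to separate, because the last 300 bases of their longest transcripts were 93.5% identical. Ly6c2 had only 7 UMIs in the arterial-type cells.

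Only a minority of the cells carried the 2 genes most particular to arteries by textbook use. Gja4 was seen in 50 of the 173 cells and Sema3g in 55, with 29 cells holding both. No UMI of either was found in 97 cells (56.1%, 48.3% to 63.6%), 1 UMI in 34 cells (19.7%) and 2 or more in 42 cells (24.3%, 18.1% to 31.4%). At the other end, 61 cells (35.3%, 28.2% to 42.9%) also held 5 or more UMIs of Stab2, Dnase1l3 and Ackr1, and 34 held none. The plot of rule genes per cell shows the class as a spread above the threshold with no gap along it. The 25 cells just outside, with 8 or 9 UMIs of the 5 genes and more of them than of the 3 sinusoidal genes, held 114 CPM of Cxcl12 (UMIs of the gene per 1000000 UMIs of the class). The 27 cells just inside, with 10 or 11 UMIs, held 109 CPM. Vcam1 stood at 1400 CPM outside and 923 CPM inside.

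**Figure D1:**
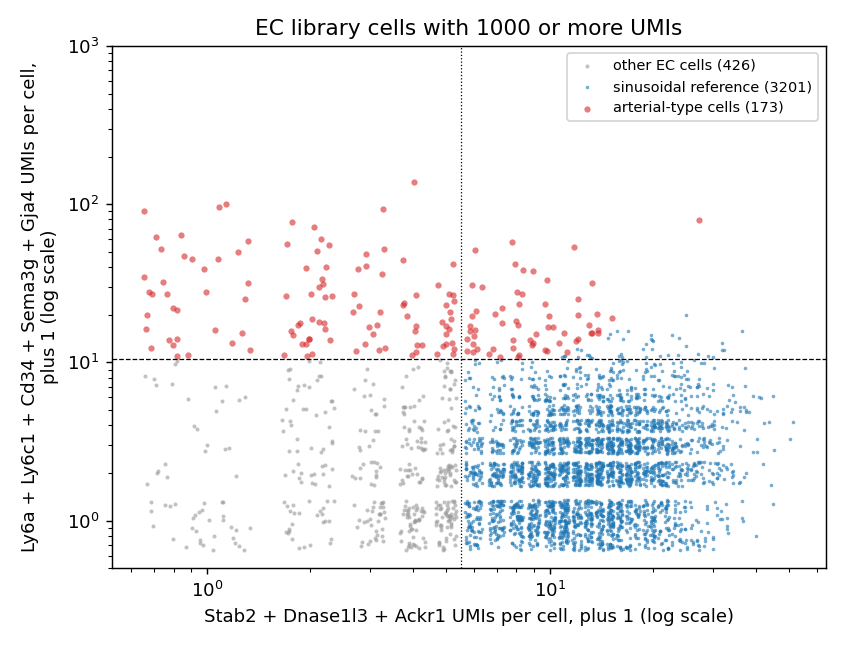
Each point is 1 of the EC library cells with 1000 or more UMIs, placed by its UMIs of Stab2, Dnase1l3 and Ackr1 (x axis, plus 1, log scale) and of Ly6a, Ly6c1, Cd34, Sema3g and Gja4 (y axis, plus 1, log scale), with small random offsets to separate equal counts. Lines mark the thresholds of 10 arterial UMIs (dashed) and 5 sinusoidal UMIs (dotted); the 173 arterial-type cells continue into the 426 other cells with no gap at the dashed line, and 61 of them lie right of the dotted line.

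The rule required at least 1 UMI of Cdh5 or Cldn5, so these genes cannot check the label. Cdh5, encoding VE-cadherin, stood at 888 CPM in arterial-type and 818 CPM in reference cells, and Cldn5, a tight junction claudin, at 2231 and 2607 CPM. The other endothelial markers were outside the rule. Pecam1, encoding the adhesion protein CD31, stood at 694 CPM in arterial-type and 335 CPM in reference cells, Kdr, a VEGF receptor, at 927 and 1115 CPM, and Tek, the angiopoietin receptor, at 192 and 237 CPM. The median depth was 4030 UMIs in arterial-type cells and 3493 in the reference, and the median mitochondrial share 2.82% and 3.86%. The EC library counted 18152304 UMIs in all, and the arterial-type class summed to 794772 UMIs against 11602255 in the reference. Of 42 barcodes shared between the libraries, 1 belonged to an arterial-type cell.

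The deepest arterial-type cell did not look endothelial. It held 18913 UMIs, 17 of them Cd34 and none of Ly6a, Ly6c1, Sema3g, Gja4 or Cldn5, with 2 of Cdh5. It carried 15 of the class's 19 UMIs of Mpo, a myeloid granule enzyme, and 10 of its 11 UMIs of Cd48, a blood cell surface protein. Without it, the measured genes of the progenitor marker list fell from 3 of 5 higher to 1 of 4, and the proliferation list from 8 of 12 higher to 1 of 12. Smaller shifts were from 5 higher and 3 lower to 6 and 2 in the elastic fibre and matrix list, and from 4 to 3 lower in leukocyte adhesion. The list of VEGF and angiopoietin receptors, which also holds ligands, went from 1 to 2 higher. Lower genes fell from 11 to 10 in the sinusoidal and venous list and from 2 to 1 among endothelial transcription factors.

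Of 9 marker lists of other cell types, 6 summed to less than in the reference and 3 (Sca-1 fibroblast, progenitor and lymphoid) to more. Summed over 10 granulocyte markers the level was 157 CPM against 718 CPM, and over 10 erythroid markers 342 against 1880 CPM, with Alas2, Klf1, Slc4a1 and Ermap at 0. The 10 stromal markers summed to 85.6 CPM against 201 CPM, with Cxcl14, Col1a1, Col1a2, Tnc and Kng1 at 0, compared with 15845 CPM in the 2929 stromal cells of the LepR_tdT library. Of 10 markers of Sca-1 fibroblasts 8 were at 0, including Dpt, Dcn, Pi16 and Col3a1, and the list summed to 10.1 CPM from 8 UMIs, against 5.52 CPM in the reference. The 10 pericyte and smooth muscle markers summed to 550 against 1313 CPM, with Acta2, Myh11, Cspg4, Notch3 and Des at 0. Kcnj8 supplied 293 and Abcc9 137 of the 437 UMIs of this list in arterial-type cells. Lymphatic markers summed to 230 against 644 CPM with Pdpn, Lyve1, Reln and Fgl2 at 0, and megakaryocyte markers to 16.4 against 47.8 CPM. Flt4, which is also on the sinusoidal and venous list below, supplied 156 of the 183 lymphatic UMIs. The progenitor list stood at 106 against 38.1 CPM, with Spink2 and Flt3 at 0, and 3 of its 5 measured genes were higher, against 1 of 4 without the deepest cell. The lymphoid list stood at 264 against 21.5 CPM, of which Ebf1 supplied 206 of 210 UMIs while Cd79a, Ms4a1, Cd3e and Cd3g were at 0. The part of these cells' RNA in the results below was not tested beyond the alternatives given.

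Arterial-type cells held more RNA of many known arterial genes than the sinusoidal reference, and less of many sinusoidal genes, while Notch genes were divided. A gene was measured when both classes together held at least 20 UMIs, and was called higher or lower at a ratio of at least 2 with a 95% interval that excluded no difference. Of 11135 genes measured, 762 were higher (6.84%) and 448 lower (4.02%). These rates come from the same cells that the rule selected, so they are background and carry no test. A gene with few UMIs could pass the minimum through the arterial-type class alone, so the list counts and medians below are descriptions. The median log2 ratio over all genes was 0.19, and scaling by TMM (trimmed mean of M values) lowered every log2 ratio by 0.22. Under TMM 516 genes were higher and 691 lower, so that 42.8% of called genes were higher in place of 63.0%.

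Of 16 measured arterial genes outside the rule, 12 were higher and 1 lower, with a median log2 ratio of 1.97. Fbln5, an elastic fibre protein, stood at 230 CPM (198 to 266) in arterial-type and 50.7 CPM (46.7 to 55.0) in reference cells, a log2 ratio of 2.18. Sox17, the SOXF factor of arterial identity, stood at 182 CPM (154 to 215) against 54.5 CPM (50.3 to 58.9). Efnb2, the ephrin that marks arteries, was 10.7-fold higher at 120 against 11.1 CPM, and Hey1, a Notch target, rested on 16 UMIs against 5. Vegfc, a lymphatic and vascular growth factor, had 29 UMIs against 27, which is 36.5 against 2.33 CPM. Stmn2, a microtubule regulator best known from neurons, had 69 UMIs in 14 arterial-type cells and 1 UMI in the whole reference. Tm4sf1, a tetraspanin-like protein of endothelium, was the most abundant of the list at 2360 CPM against 700 CPM. Mgp, the matrix Gla protein that inhibits calcification, went the other way at 44.0 against 122 CPM. Dll4, the arterial Notch ligand, was at 69.2 against 53.7 CPM and was not called.

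Many sinusoidal and venous genes were lower. Of 17 measured genes outside the rule 11 were lower and 0 higher, with a median of −1.25. Vcam1, the leukocyte adhesion molecule, stood at 635 CPM (581 to 693) against 2040 CPM (2014 to 2066). Selp, encoding P-selectin, was 67.9 against 336 CPM, Adamts5, a proteoglycan-cleaving protease, 315 against 1386 CPM, and Nr2f2, the venous transcription factor COUP-TFII, 143 against 419 CPM. Plvap, which forms the diaphragms of fenestrae and caveolae, ran the other way at 1943 against 1595 CPM. Emcn, a sialomucin used to stain sinusoids, did so at 956 against 543 CPM. Both stayed under 2-fold and were not called. Without the deepest cell their log2 ratios were 0.32 (0.24 to 0.39) for Plvap and 0.85 (0.74 to 0.96) for Emcn. Among abundant genes (100 CPM or more where they were higher) the lowest ratio was that of Cfd, encoding the complement factor adipsin, at 25.2 against 639 CPM. Meis2, a homeobox factor, followed at 6.29 against 115 CPM, and Rarres2, encoding chemerin, was at 44.0 against 326 CPM.

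**Figure D2:**
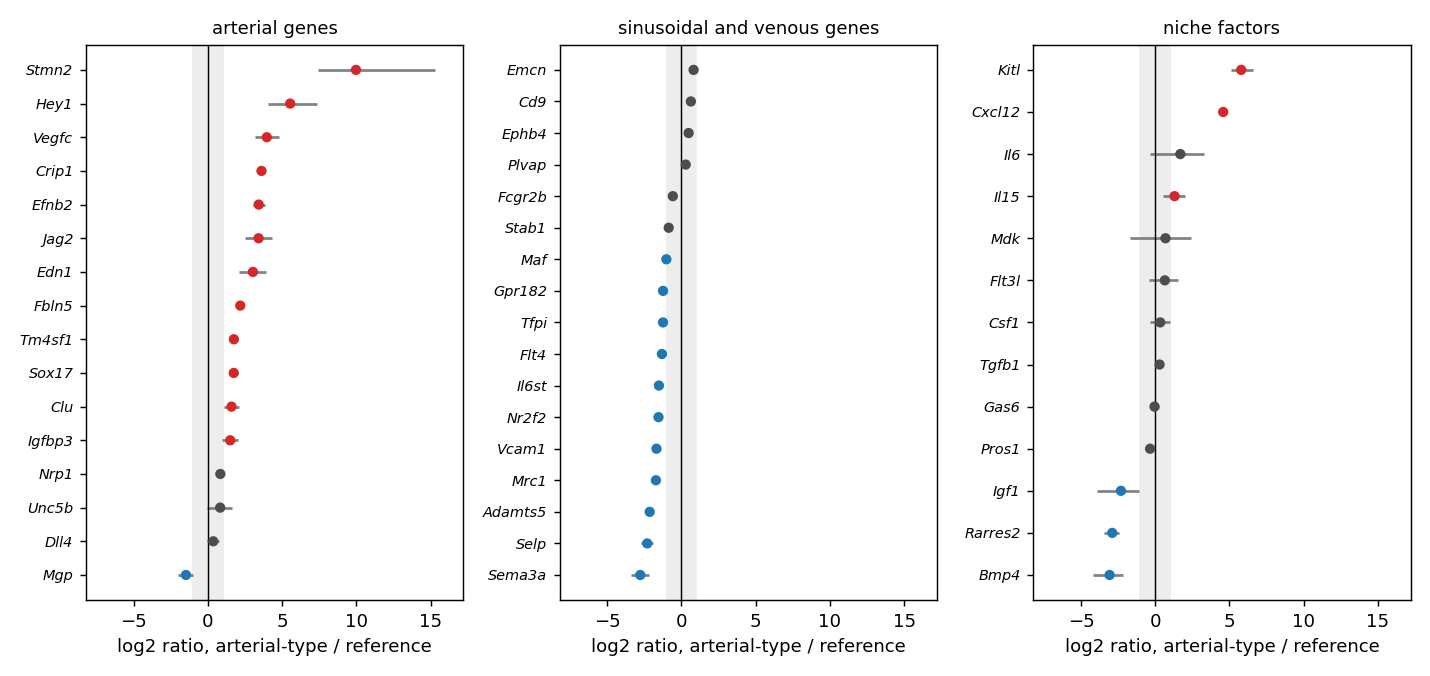
Log2 ratios of summed UMIs, arterial-type over sinusoidal reference cells, for the measured arterial genes outside the rule (left), sinusoidal and venous genes (middle) and niche factors (right). Points are ratios and bars 95% counting intervals; red is called higher, blue lower and dark grey neither, and the grey band covers ratios under 2-fold. Stmn2, Kitl and Cxcl12 lie far to the right, whereas Plvap and Emcn lie within the band.

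Capillary genes were higher as well. Of 11 measured, 7 were higher and 1 lower, with a median of 1.25. Tcf15, a transcription factor of capillary endothelium, stood at 109 CPM against 0.862 CPM, and Rbp7, a retinol-binding protein, at 160 against 2.33 CPM. Aplnr, the apelin receptor, stood at 344 against 98.5 CPM and Gpihbp1, which carries lipoprotein lipase to the capillary lumen, at 2038 against 793 CPM. Aqp1, a water channel, was lower at 622 against 1634 CPM. The class as chosen therefore carried both arterial and capillary transcripts.

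Matrix and barrier genes included the steepest ratios. Fbln2, an elastic fibre and basement membrane protein, had 179 UMIs against 7, or 225 CPM (193 to 261) against 0.603 CPM (0.243 to 1.24), the highest ratio among the abundant genes at a log2 of 8.54 (7.47 to 9.88). It was seen in 63 arterial-type cells, with at most 9 UMIs in a cell, and in 7 of 3201 reference cells. Sparcl1, a SPARC-related matrix protein, had 88 UMIs in 36 cells against 11 in 9 reference cells. In the elastic fibre and matrix list 5 of 13 measured genes were higher and 3 lower. In the basement membrane list 7 of 13 were higher and 0 lower, with a median of 1.65. Among them Col18a1, a basement membrane collagen, had 53 UMIs against 36, or 66.7 against 3.10 CPM. Under TMM 7 basement membrane genes were higher and 1 lower. Among 10 junction genes 3 were higher, and under TMM 1 was. Jam2, a junctional adhesion molecule, was 34.0-fold higher at 179 against 5.26 CPM. Cav1, the coat protein of caveolae, stood at 182 against 4.40 CPM, and 3 of 6 measured caveola and diaphragm genes were higher and 1 lower, whereas under TMM 1 was higher and 1 lower.

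Of 12 measured genes of vascular tone, 6 were higher and 1 lower. Ramp3, a co-receptor for adrenomedullin, stood at 298 CPM (261 to 339) against 6.55 CPM (5.16 to 8.20). Ednrb, an endothelin receptor, stood at 56.6 against 3.97 CPM, and Edn1, encoding endothelin, at 22.7 against 2.76 CPM from 18 and 32 UMIs. Slc6a6, the taurine transporter, was among the highest ratios and the most widely seen, with a median of 2 UMIs per arterial-type cell, a highest value of 25 and detection in 122 of 173 cells. It stood at 892 against 33.9 CPM.

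**Figure D3:**
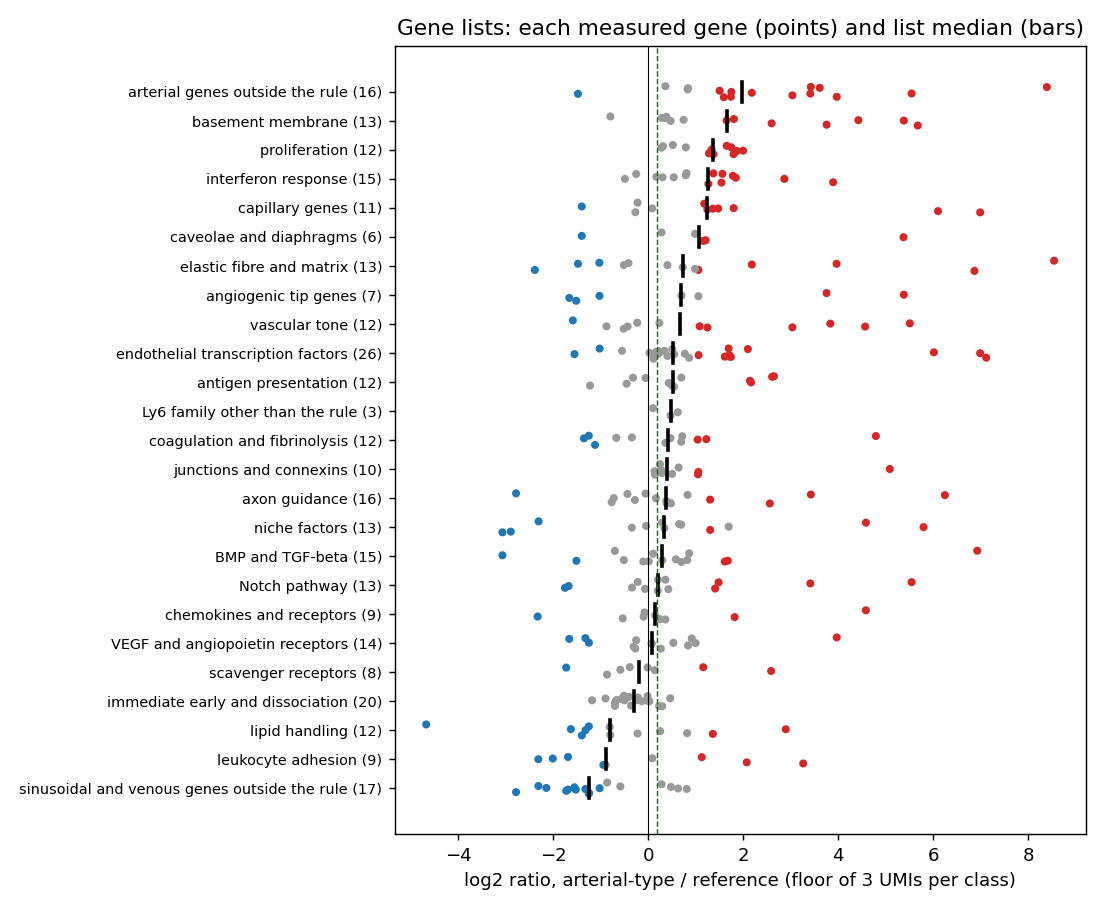
Log2 ratio of arterial-type over sinusoidal reference cells for the measured genes of 25 lists (points), with a class under 3 UMIs set to 3. This floor raises the ratio of a gene under 3 UMIs in arterial-type cells, the smaller class, and such a gene can be shown as higher though its own counts were lower. The floor lowers the ratio of a gene under 3 UMIs in the reference. Calls used ratios without the floor. Black bars are list medians, the dashed green line is the median of all 11135 genes (0.19), red points were called higher and blue points lower; list sizes are in parentheses, and the arterial list has the highest median and the sinusoidal list the lowest.

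Notch genes split. Of 13 measured, 4 were higher (Hey1, Jag2, Nrarp and Notch4) and 2 lower (Jag1 and Notch2), with a median of 0.21 that became −0.01 under TMM. The receptor Notch4 stood at 95.6 against 35.9 CPM and the feedback target Nrarp at 128 against 45.9 CPM. Of the ligands, Jag2 stood at 23.9 against 2.24 CPM and Jag1 at 16.4 against 52.1 CPM. Of 26 measured endothelial transcription factors 10 were higher and 2 lower. Tbx3 had 38 UMIs against 4 and Mecom 31 against 7, while Lmo2, a partner of blood and endothelial factors, stood at 263 against 61.3 CPM.

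The other lists gave mixed counts. The list of VEGF and angiopoietin receptors, which also holds ligands, had 1 higher and 3 lower of 14. Vegfc was the higher gene, and Angpt2, Vegfa and the receptor gene Flt4 were lower. Higher and lower members numbered 3 and 3 of 12 for coagulation and 2 and 5 of 12 for lipid handling. Such members numbered 2 and 1 of 8 for scavenger receptors and 3 and 4 of 9 for leukocyte adhesion. They numbered 2 and 3 of 7 for angiogenic tip genes, 2 and 1 of 9 for chemokines, 4 and 1 of 16 for axon guidance, 3 and 2 of 15 for BMP and TGF-beta, and 0 and 0 of 3 for other Ly6 genes. Tgfb2, a ligand of the TGF-beta family, had 25 UMIs against 0 in the reference. Plat, the tissue plasminogen activator, had 19 UMIs against 10. Sele, encoding E-selectin, was lower at 41.5 against 167 CPM and Podxl, an anti-adhesive sialomucin, higher at 201 against 20.9 CPM.

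Of 15 measured interferon genes 8 were higher and 0 lower, with a median of 1.27. Rsad2, encoding the antiviral enzyme viperin, stood at 204 against 13.7 CPM and Isg15, a ubiquitin-like protein, at 141 against 40.9 CPM. Rsad2 was seen in 73 of 173 cells (42.2%) and Isg15 in 44 (25.4%), with at most 9 UMIs of either in a cell. No immediate early or dissociation gene of 20 was called in either direction, with a median of −0.30, and under TMM 1 was lower. Of 12 proliferation genes 8 were higher, but without the deepest cell 1 was. That cell held 30.1% of the 594 UMIs of the list, and the top 3 cells 55.2%. Of these top 3, 2 were among the 61 cells with 5 or more sinusoidal UMIs, which do not include the deepest cell. Against the reference, those 61 cells had 7 of 12 proliferation genes higher, with a median of 1.59. Of 12 antigen presentation genes 4 were higher, namely Cd74, H2-Aa, H2-Ab1 and H2-Eb1 of the class II pathway. A single cell held 39 of the 59 Cd74 UMIs, and without it the Cd74 log2 ratio fell from 2.61 to 1.06 (0.31 to 1.74), with the same 4 genes called.

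The niche factors were divided, with 3 of 13 measured genes higher and 3 lower. Cxcl12 (chromosome 6, 117168535 to 117181367 on GRCm38) had 539 UMIs in arterial-type and 328 in reference cells. That is 678 CPM (622 to 738) against 28.3 CPM (25.3 to 31.5), a log2 ratio of 4.58 (4.38 to 4.79). The lowest, median and highest counts per cell were 0, 0 and 36 in arterial-type cells and 0, 0 and 10 in reference cells, so most cells of both classes held none. Kitl (chromosome 10, 100015630 to 100100416) had 80 UMIs against 21, or 101 CPM (79.8 to 125) against 1.81 CPM (1.12 to 2.77), a log2 ratio of 5.80 (5.09 to 6.57). Its highest count was 7 in arterial-type and 2 in reference cells. Il15, a lymphoid cytokine, rested on 19 UMIs against 112, at 23.9 against 9.65 CPM. Lower were Bmp4 at 11.3 against 94.6 CPM, Igf1 at 6.29 against 31.0 CPM, and Rarres2. Tgfb1 at 389 against 316 CPM, Gas6 at 107 against 110 CPM and Csf1 at 27.7 against 21.8 CPM were not called.

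The Cxcl12 and Kitl signal sat in few cells. Cxcl12 was seen in 70 of 173 arterial-type cells (40.5%) and Kitl in 41 (23.7%). The 10 richest cells held 48.1% of the Cxcl12 UMIs and 52.5% of the Kitl UMIs. Of the 50 cells with Gja4, 41 also had Cxcl12 (82.0%), against 23.6% of the cells without Gja4. Kitl was seen in 46.0% of cells with Gja4 and 14.6% of those without. Median depths of these cells were 4735 and 3878 UMIs.

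To set detection at equal depth, each arterial-type and reference cell was thinned to 1000 UMIs. No cell of these classes was shallower. Cxcl12 was then seen in 42 of 173 arterial-type cells (24.3%, 18.1% to 31.4%) and 2.72% of reference cells (8.75% before thinning). Most blood cells of the same library were left out of the thinning, so no thinned share is given for them. Without thinning, Cxcl12 was seen in 0 of 29 blood cells, which allows up to 11.9%. Their median depth was 14704 UMIs. Droplets without cells in the EC library, a measure of free RNA, held 859 CPM of Cxcl12, above the 678 CPM of the arterial-type cells. Kitl was seen after thinning in 7.51% of arterial-type cells and 0.156% of reference cells. Fbln2 was at 17.9% against 0.0625%, Slc6a6 at 48.6% against 3.09% and Vcam1 at 39.3% against 77.1%.

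**Figure D4:**
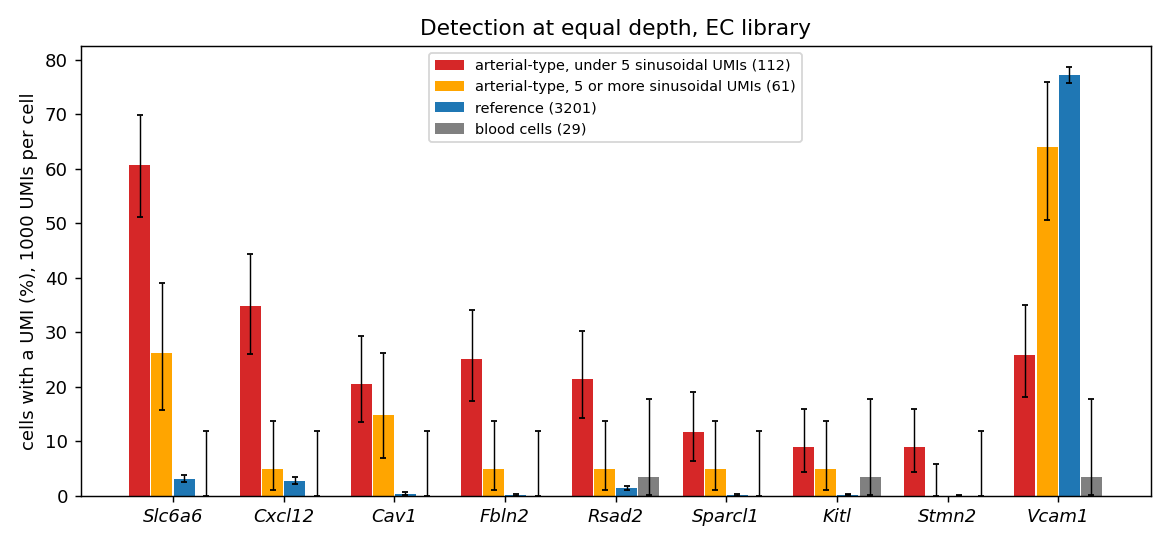
Share of cells with at least 1 UMI of a gene after thinning each cell to 1000 UMIs, for arterial-type cells with under 5 and with 5 or more sinusoidal UMIs, the sinusoidal reference and blood cells of the EC library. Most blood cells were not thinned and counted as lacking each gene, so the blood-cell bars can be too low and are not read here. Bars are shares in percent, lines exact 95% intervals and numbers of cells are in the legend; Cxcl12 stood at 34.8% in the first class and 4.92% in the second, and Vcam1 at 25.9% and 63.9%.

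As a description, the class was then divided by 2 of the rule's own genes, Sema3g and Gja4, comparing the 42 cells with 2 or more UMIs with the 97 cells with none. Median depths were 5319 and 3823 UMIs, and a deeper cell is more likely to show 2 such UMIs; the grouping itself was not thinned. Of 4755 genes measured, 5.47% were higher and 3.66% lower in the first group. Of 12 measured arterial genes outside the rule, 9 were higher and 0 lower. Of 16 sinusoidal and venous genes, 10 were lower and 0 higher. Of 11 capillary genes, 2 were higher and 1 lower, and of 13 interferon genes none was called.

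Cxcl12 stood at 1859 CPM in cells with 2 or more Sema3g and Gja4 UMIs, 258 CPM in cells with 1, and 164 CPM in cells with 0. The log2 ratio of the first to the last was 3.51 (3.14 to 3.89). At equal depth the shares of cells with Cxcl12 were 57.1% (41.0% to 72.3%), 26.5% (12.9% to 44.4%) and 9.28% (4.33% to 16.9%), and neighbouring intervals overlapped. Kitl stood at 236, 93.2 and 28.4 CPM. Both genes in the cells with 0 UMIs still exceeded the reference, by log2 ratios of 2.53 (2.14 to 2.91) for Cxcl12 and 3.97 (2.82 to 5.06) for Kitl.

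Fbln5, Sox17, Stmn2 and Vegfc were higher in the 42 cells than in the 97. Fbln5 stood at 651 CPM in the 42 cells and 45.0 CPM in the 97, the latter not called against the 50.7 CPM of the reference. Sox17 stood at 424 and 80.6 CPM. All 69 Stmn2 UMIs lay in the 42 cells, and Vegfc had 25 UMIs against 2. Mgp, which was lower in the whole class, was also called higher in the 42 cells than in the 97. In the 97 cells it was called lower than in the reference. S100a6, a calcium-binding protein, stood at 1118 against 97.2 CPM and Crip1, a LIM domain protein, at 1096 against 126 CPM. Blood cells also held S100a6 at 520 CPM and Crip1 at 1073 CPM.

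Ramp3 and Sparcl1 were not called between these groups. Ramp3 stood at 313 and 261 CPM, a log2 ratio of 0.26 (−0.18 to 0.70), and Sparcl1 at 116 and 90.1 CPM, a log2 ratio of 0.36 (−0.41 to 1.11). Both remained far above the reference in cells with no Sema3g or Gja4 UMI, by log2 ratios of 5.32 for Ramp3 and 6.57 for Sparcl1. Aplnr ran the other way at 137 against 396 CPM, and Vcam1 at 304 against 832 CPM. In the 97 cells against the reference, where 5.06% of 11058 genes were higher and 2.69% lower, 4 of 14 arterial genes but 7 of 11 capillary genes were higher.

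**Figure D5:**
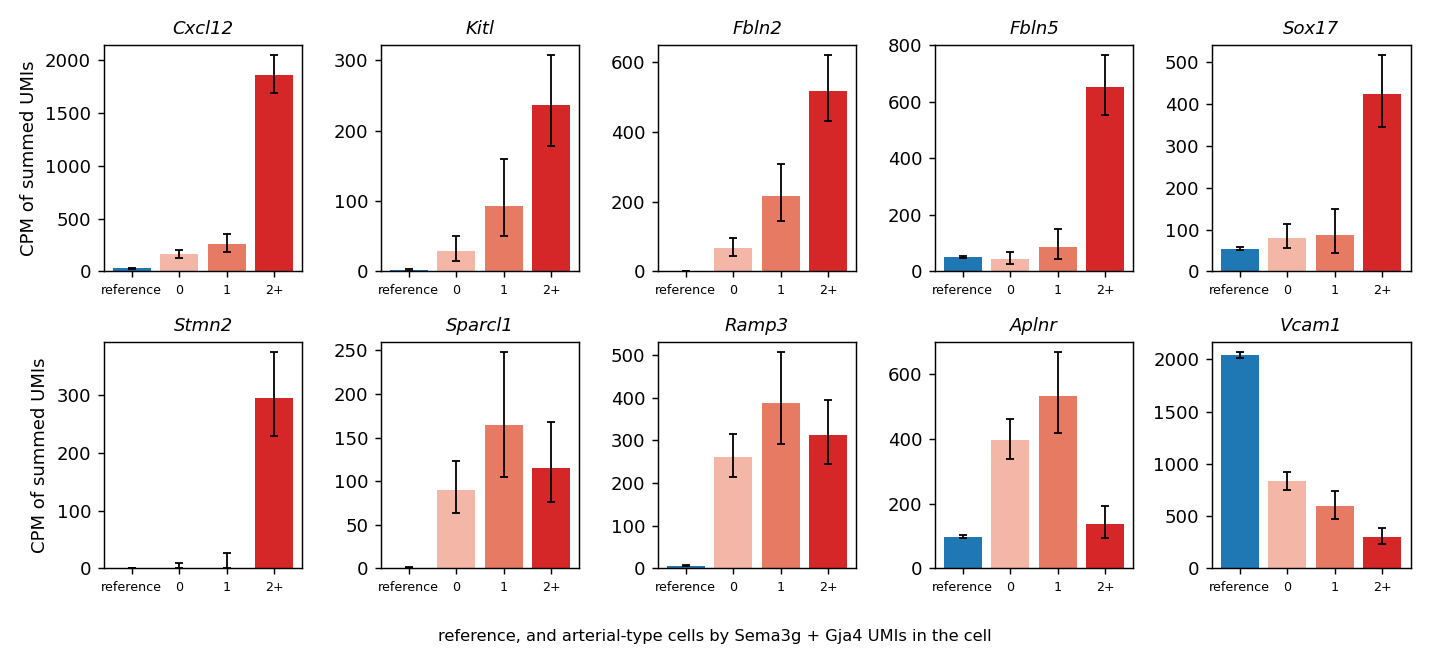
CPM of summed UMIs for 10 genes in the sinusoidal reference and in arterial-type cells with 0, 1 and 2 or more UMIs of Sema3g and Gja4 (97, 34 and 42 cells). Bars start at 0 on separate axes and lines are exact Poisson 95% intervals; Cxcl12, Fbln5, Sox17 and Stmn2 peak in the last group, Sparcl1 and Ramp3 were not called between the groups with 0 and with 2 or more, and Vcam1 descends from 2040 CPM in the reference to 304 CPM.

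The 61 cells with 5 or more sinusoidal UMIs were compared with the other arterial-type cells and with the reference, as a description, since the division uses the rule's own sinusoidal genes. Their median depth was 4537 UMIs, against 3757.5 for the other 112. Against those 112, 1.98% of 5353 genes were higher and 4.07% lower. Cxcl12 stood at 194 CPM in the 61 cells and 993 CPM in the 112, Kitl at 22.3 and 152 CPM, and Fbln2 at 63.8 and 330 CPM, while Vcam1 stood at 1046 and 368 CPM. Against the reference, where 3.99% of 11032 genes were higher and 1.94% lower, 3 of 14 arterial genes and 5 of 11 basement membrane genes were higher. Cxcl12 had a log2 ratio of 2.78 (2.36 to 3.18), Fbln2 of 6.72 (5.42 to 8.21), Sparcl1 of 6.00 (4.85 to 7.22) and Ramp3 of 4.66 (4.12 to 5.19). Fbln5, at 54.2 against 50.7 CPM, was not called. Droplets holding an arterial and a sinusoidal cell would also give both sets of UMIs, and their part was not tested, because the doublet caller Scrublet marked 0 of 4536 EC cells.

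The same rule applied to the LepR_tdT library, which had no part in choosing it, found 4 arterial-type cells and 55 reference cells. The 4 cells summed to 18950 UMIs, so few genes could be read. Of the genes named by the rule for this text and called higher in the EC library, 20 had 20 or more UMIs here, and the interval excluded no difference for 10, each in the same direction. Of those called lower, 30 had 20 or more UMIs, and the interval excluded no difference for 9, again each in the same direction. These genes were named from the EC library, many for extreme ratios there. The share over all genes of the LepR_tdT library was not computed, so the counts are a description. Among the higher were Tm4sf1 at 1636 against 543 CPM and Id1, a BMP target, at 1108 against 307 CPM. Cfd was lower, with 0 UMIs against 410. Of genes under 20 UMIs, Sparcl1 had 8 UMIs against 0, Fbln2 3 against 0, and Col18a1 8 against 1. For Slc6a6, with 1 UMI against 18, and Isg15, with 0 against 26, the intervals included no difference. Cxcl12, 1 of the 10, stood at 8179 against 4119 CPM, and free RNA of that library held 24077 CPM of it. Kitl had 3 UMIs in the 4 cells against 19.

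Stromal cells of the LepR_tdT library set the scale of these factors. Their 2929 cells held 36230 CPM of Cxcl12 and 777 CPM of Kitl, against 678 and 101 CPM in arterial-type cells, with log2 ratios of −5.74 (−5.86 to −5.62) and −2.95 (−3.28 to −2.63). Gas6 was also below stroma, at 107 against 4911 CPM. Tgfb1 ran the other way at 389 against 67.6 CPM. Here the cell type and the library cannot be told apart.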

How the data were processed

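RNA was measured by droplet single-cell sequencing in 2 libraries. The deposited matrix holds raw UMI counts for 27999 genes and all barcodes, and the authors' deposited table lists the cells with their library and UMI number. Cell Ranger 2.1.1, Seurat 2.3.4 and build mm10 are named per the submitters' processing notes. Members, gene lists and markers were chosen with earlier results of these data known, so the lists support no independent claim.

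UMIs were summed per class and divided by the class total (CPM). Sums have exact Poisson intervals, ratios conditional exact binomial intervals and shares exact Clopper-Pearson intervals, all at 95% and for counting error only. Genes needed 20 UMIs over both classes. List medians and the median over all genes set a class below 3 UMIs to 3. This raised the ratios of genes under 3 UMIs in arterial-type cells, the smaller class. Calls used ratios without this floor. Named genes were the rule genes, all measured arterial, sinusoidal, capillary, niche and Notch genes, up to 4 extreme members of each other list, and the 15 highest and 10 lowest ratios at 100 CPM or more in the higher class. Thinning used seed 1 and left out most blood cells. Free RNA was taken from barcodes outside the cell table with at most 100 UMIs. The planned granulocyte class held 0 cells; blood cells (at most 4 Cdh5 and Cldn5 UMIs, at least 20 UMIs of blood markers) were defined after seeing the data, as were the division at 5 sinusoidal UMIs and the removal of single cells. The comparison was run on simulated Poisson sums of whole classes with planted ratios. These sums held no spread between cells and no choice of cells by counts, so they test neither. Positions come from GENCODE on GRCm38 (27645 gene identifiers found) and promoters from RefSeq GRCm38.p6. Python 3.11.15, numpy 2.4.6, scipy 1.17.1, scanpy 1.11.5 and edgeR 4.0.16 (TMM factors only) were used.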

Additional observations from a re-analysis of the deposited data

How the results depend on the processing

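No paired analysis was possible because each population has 1 library. Of the main values, none changed direction. The arterial-type share of EC cells moved from 3.81% to 1.70% when members needed 20 UMIs of the 5 genes, 5.49% at 5 UMIs, 0.926% with at least 2 Sema3g and Gja4 UMIs, 2.47% with under 5 sinusoidal UMIs, and 0.529% after thinning to 1000 UMIs. The median log2 ratio of arterial genes (1.97) was 2.29 at 20 UMIs, 2.98 with at least 2 Sema3g and Gja4 UMIs and 2.48 with under 5 sinusoidal UMIs. It was 1.60 after thinning, 1.59 for genes with at least 100 UMIs and 3.23 with no minimum of UMIs. With no minimum, a gene under 3 UMIs in both classes takes a high ratio set by the 3-UMI floor and the class totals. The value of 3.23 is therefore not a measured ratio. The median of sinusoidal genes (−1.25) was −1.67 at 20 UMIs, −2.27 with at least 2 Sema3g and Gja4 UMIs and −1.71 with under 5 sinusoidal UMIs. The Cxcl12 log2 ratio (4.58) was 5.21 at 20 UMIs, 4.29 at 5 UMIs, 4.37 without cells holding blood or stromal RNA, 6.04 with at least 2 Sema3g and Gja4 UMIs, 5.13 with under 5 sinusoidal UMIs, 4.37 under TMM and 11.26 with free RNA subtracted, where the reference fell to the 3-UMI floor. Kitl (5.80) was 7.02 with at least 2 Sema3g and Gja4 UMIs and 8.57 with free RNA subtracted, where the reference was again at or near the 3-UMI floor. Higher genes fell from 762 to 461 for genes with at least 100 UMIs, and lower genes from 448 to 229 after thinning, while TMM gave 691 lower. Thinning leaves fewer UMIs and the 100-UMI minimum fewer genes. The cause of the moves was not tested. Cd27, a lymphocyte receptor, was reversed at −0.36 in members with at least 2 Sema3g and Gja4 UMIs. Over all values and alternatives, 1751 stayed within their limits, 316 moved and 1 reversed; 256 values of 70 genes with a class under 3 UMIs are not given. Scrublet marked 0 of 4536 cells, so leaving out doublets gave no value. Depth limits genes near 20 UMIs, and there is no second library to show the spread between preparations.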
